A study of Mus musculus with 6 samples.

Results

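The miR-34 and miR-449 miRNAs are a family of small regulatory RNAs that are tied to the tumour suppressor p53. Members were taken by name, as the mature miRNAs of the miR-34a, miR-34b and miR-34c hairpins and miR-449a-5p, with no threshold on a measured value, though earlier results of these data were known when the family was chosen. Of the 7 members (mmu-miR-34a-5p, mmu-miR-34a-3p, mmu-miR-34b-5p, mmu-miR-34b-3p, mmu-miR-34c-5p, mmu-miR-34c-3p and mmu-miR-449a-5p), 6 were among the 1546 mature miRNAs analysed, and miR-34c-3p was not analysed here. The data are small RNA-seq libraries of the liver of 3 male C57BL/6 mice on a normal diet (NC) and 3 male C57BL/6 mice with diet-induced metabolic dysfunction-associated fatty liver disease (MAFLD). The study's methods describe a high-fat diet for the MAFLD mice, with feeding for 16 weeks from 8 weeks of age, 6 mice per diet and a fast of 6 hours before the liver was taken. No genetic change or drug is described in either group, and neither the labels nor the methods give a steatosis grade for the single livers that were sequenced. Each library comes from a separate liver, and the text of the labels on cultured HepG2 hepatoma cells does not describe these tissue samples.

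A mature miRNA guides a repressor complex to messenger RNAs that pair with its seed, which is made up of bases 2 to 8. The miR-34 genes are direct targets of p53, which raises their transcription after DNA damage and other stress, and miR-34a represses mRNAs for cell cycle and survival proteins such as cyclin D1 and Bcl-2. In the liver, miR-34a is best known for lowering SIRT1, a deacetylase that supports fatty acid oxidation. MiR-34b and miR-34c come from 1 shared transcript and, with the miR-449 miRNAs, are best known from ciliated epithelium and testis.

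The mature sequences in RefSeq (GRCm38.p6) are shown because the shared seed is what makes a family of these miRNAs from 3 separate loci. A mature sequence was matched for 5 of the 6 members, all but miR-34c-5p, and for miR-449c-5p, and the seed is in capitals.

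miR-34a-5p: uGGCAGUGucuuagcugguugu
miR-34b-5p: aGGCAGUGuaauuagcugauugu
miR-449a-5p: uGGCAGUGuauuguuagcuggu
miR-449c-5p: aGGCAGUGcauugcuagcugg

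These 4 sequences share bases 2 to 8. Past the seed, miR-34a-5p and miR-34b-5p share a run of 7 bases and differ by 4 edits over the whole length, while miR-34a-5p and miR-449a-5p share a run of 9 bases and differ by 6 edits. The other arms of the hairpins carry different seeds, shown here because their reads separate arm use from locus use.

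miR-34a-3p: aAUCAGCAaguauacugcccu
miR-34b-3p: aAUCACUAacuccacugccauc

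Mir34a (ENSMUSG00000065493.1) (chromosome 4, 150068454 to 150068555, plus strand, GRCm38) overlaps an exon of Gm37795, an entry on the same strand that GENCODE M21 classes as TEC, a class for transcribed regions of unsettled status. Mir34c (chromosome 9, 51103034 to 51103110) and Mir34b (chromosome 9, 51103562 to 51103645) lie 451 bases apart on the minus strand, opposite an intron of Btg4. Mir449c, Mir449b and Mir449a (chromosome 13, 113035983 to 113037624, plus strand) lie in an intron of Cdc20b, in the direction of that gene. The submitters' processing notes name the same build.

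The libraries held between 1336935 and 4685712 reads on miRNAs, so that 3 reads, the detection limit used here, came to 0.640 to 2.24 CPM (the reads of a miRNA scaled to a common library total). MiR-148a-3p alone took between 46.8% and 71.4% of the reads, and with CPM a change in that share moves every other miRNA the other way. Over the 501 miRNAs that were tested, those averaging 1 CPM or more, the median log2 fold change in MAFLD against NC livers was 0.43, and with median-ratio scaling it was 0.044. MiR-122-5p, the defining miRNA of hepatocytes, ranked 3 or 4 in every library. MiR-9-5p, a brain miRNA, set NC replicate 1 (344 CPM) and NC replicate 2 (530 CPM) apart, since no other library exceeded 12.4 CPM. NC replicate 3 stood apart from the other NC livers (71.4% and 63.3%) in its low miR-148a-3p share, 48.5%, and is therefore also given left out. Its share and its miR-9-5p level of 9.72 CPM lay within the range of the MAFLD livers (46.8% to 56.7% and 4.48 to 12.4 CPM). Leaving it out keeps only NC replicates 1 and 2, the controls with high miR-9-5p and high miR-148a-3p.

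The 3 loci were read very unequally. MiR-34a-5p was the most abundant member in all 6 libraries, with 1074 reads in total, and ranked 122 among all miRNAs by mean CPM. MiR-34c-5p had 223 reads and ranked 195, and miR-34b-5p had 56 reads and ranked 315. The miR-449 locus was at the limit of detection, with 5 reads of miR-449a-5p, 2 of miR-449b and 1 of miR-449c-5p over all libraries, and no library held more than 3 reads of any of them. Each read comes from 1 molecule of 21 to 23 nt in these sequences, so no correction for length applies, but ligation efficiency differs between sequences and enters the levels. By their 95% Wilson intervals, which cover counting error only, miR-34a-5p and miR-34c-5p overlapped in NC replicate 2 alone, and miR-34c-5p and miR-34b-5p overlapped in MAFLD replicate 3 alone.

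**Figure D1:**
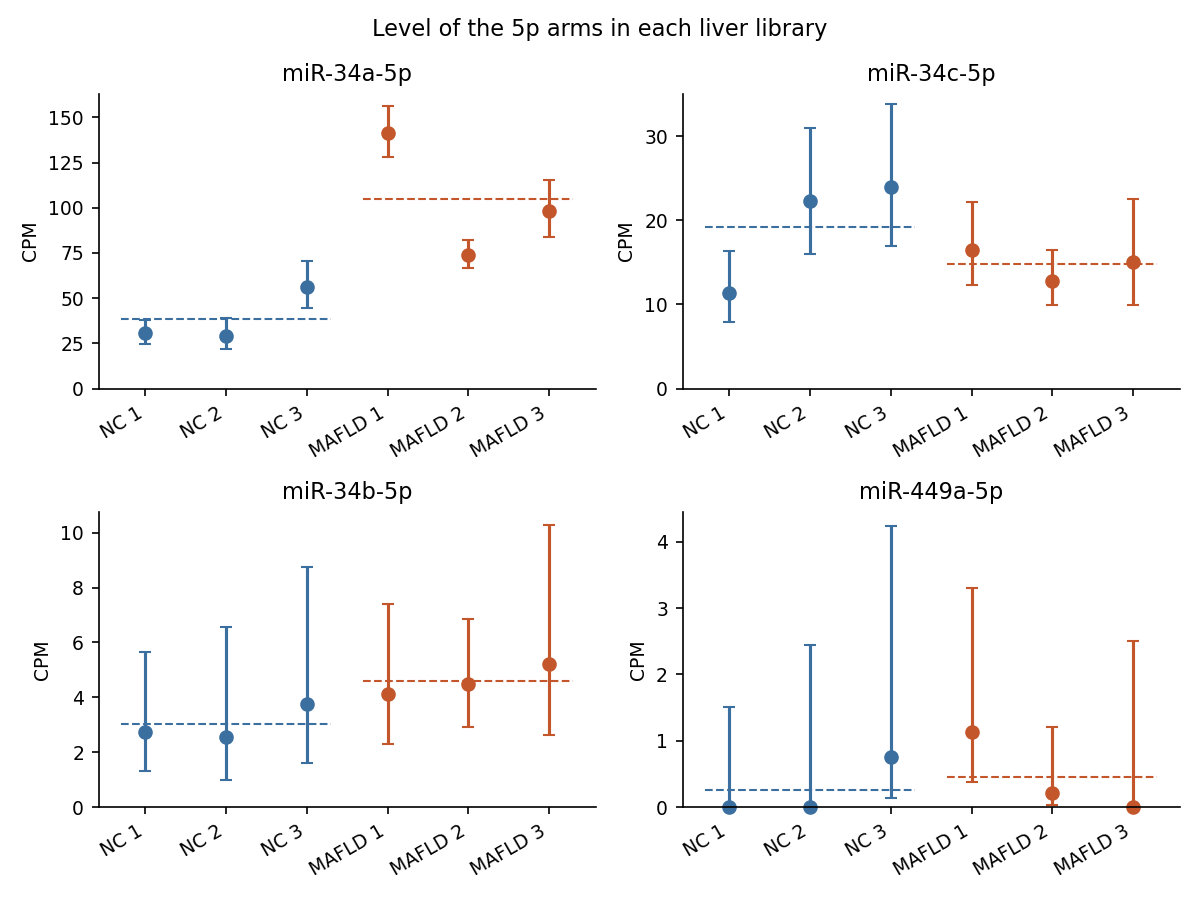
Level in CPM (y axes, from 0, each panel on its own scale) of the 5p arms of miR-34a, miR-34c, miR-34b and miR-449a in the 3 NC (blue) and 3 MAFLD (orange) libraries. Points are libraries, bars are 95% Wilson intervals of the read counts and dashed lines are group means. All MAFLD livers lie above all NC livers for miR-34a-5p, while miR-34c-5p overlaps and miR-449a-5p stays at 0 to 3 reads.

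The 5p arm carried nearly all reads of the miR-34a and miR-34b hairpins, while the arms of miR-34c and miR-449a were not compared. MiR-34a-3p had 0 reads in all 6 libraries, so miR-34a-5p was at least 358-fold higher, taking 3 reads over all libraries together as the limit for the absent arm. MiR-34b-3p had 3 reads, 1 each in NC replicates 1 and 3 and MAFLD replicate 1, which makes miR-34b-5p 18.7-fold higher (95% exact interval 6.07 to 93.2).

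MiR-34a-5p was higher in the livers of MAFLD mice, but the difference did not pass the adjusted threshold. Its level was 30.6, 29.3 and 56.1 CPM in the 3 NC livers (78, 46 and 75 reads). The 3 MAFLD livers held 141, 74.1 and 98.4 CPM (377, 347 and 151 reads). The groups did not overlap by their point values, whereas the counting interval of NC replicate 3, the highest control (44.8 to 70.3 CPM), overlapped with that of MAFLD replicate 2, the lowest MAFLD liver (66.7 to 82.3 CPM). The means were 38.7 ± 15.1 CPM (SD, n = 3) and 104.6 ± 34.1 CPM (SD, n = 3). Its log2 fold change on the log2(CPM + 1) scale was 1.43 (standard error 0.44, 95% interval 0.50 to 2.36), which is 1.00 above the median of all tested miRNAs. The unadjusted p from limma was 0.00517 and the adjusted p was 0.152, and the two-sided exact permutation p was 0.1, the lowest possible with groups of 3. MiR-34a-5p held position 17 of 501 by p. At an adjusted p under 0.05, 0.200% of the 501 miRNAs were called (1 miRNA, not a member), at an unadjusted p under 0.05 13.4% were higher in MAFLD livers, and 15.2% were higher with groups that do not overlap.

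With DESeq2 on the reads recovered from the CPM values, miR-34a-5p rose past the threshold, with a log2 fold change of 0.99 and an adjusted p of 0.0147. There 8.38% of the miRNAs with an adjusted p were called, 2.36% as higher. Without NC replicate 3 the limma fit also called it (log2 fold change 1.72, adjusted p = 0.00668), in a fit that called 22.8% of all miRNAs, 19.0% as higher, and whose median over all miRNAs was 0.67. The only controls in that fit were NC replicates 1 and 2, with high miR-9-5p. Without NC replicate 1 or NC replicate 2, the libraries with high miR-9-5p, the log2 fold change was 1.29 or 1.26, with an adjusted limma p of 0.307 or 0.592. Median-ratio scaling, which takes out most of the common shift, left a log2 fold change of 0.97 with an adjusted limma p of 0.0956 (0.399% of all miRNAs called), and the scaled levels of 37.8 to 48.4 in NC and 75.3 to 109.6 in MAFLD livers still did not overlap. In that scaling 11.6% of all tested miRNAs were higher with groups that do not overlap.

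MiR-34c-5p, from the other miR-34 locus, did not follow miR-34a-5p. The NC livers held 11.4, 22.3 and 23.9 CPM (29, 35 and 32 reads). The MAFLD livers held 16.5, 12.8 and 15.0 CPM (44, 60 and 23 reads). The groups overlapped, since NC replicate 1 was the lowest of all 6 libraries and the other NC livers were the highest. The log2 fold change was −0.30 (standard error 0.47, 95% interval −1.31 to 0.71, adjusted p = 0.758 from limma). With median-ratio scaling it was −0.74 (adjusted p = 0.304), and the scaled levels no longer overlapped, at 18.0 to 28.7 in NC and 11.5 to 13.3 in MAFLD livers. The share of all tested miRNAs that were lower without overlap in that scaling was 9.18%.

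MiR-34b-5p, made from the same transcript as miR-34c, was scarce. Its NC levels were 2.75, 2.55 and 3.74 CPM (7, 4 and 5 reads). Its MAFLD levels were 4.13, 4.48 and 5.21 CPM (11, 21 and 8 reads). The point values did not overlap, as for the 15.2% of all tested miRNAs that were higher in MAFLD livers without overlap. The counting intervals of all 6 libraries did overlap, and with median-ratio scaling the values overlapped as well. The log2 fold change was 0.49 (standard error 0.52, 95% interval −0.61 to 1.59, adjusted p = 0.618 from limma), which is 0.061 above the median of all tested miRNAs. The ratio of miR-34c-5p to miR-34b-5p reads lay between 4.14 and 8.75 in NC and between 2.86 and 4.00 in MAFLD livers, each resting on 4 to 21 reads of miR-34b-5p.

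MiR-449a-5p was not testable at this depth. It had 0, 0 and 1 reads in NC livers and 3, 1 and 0 reads in MAFLD livers, at or under the limit of 3 reads everywhere, so no fold is given. Both 3p arms were likewise under the filter. Of the 6 members analysed, 3 were thus tested, and the limma fit called 0 of them at an adjusted p under 0.05 and 1, miR-34a-5p, at an unadjusted p under 0.05. At the adjusted threshold edgeR called 0 of them (0.200% of all miRNAs) and DESeq2 called 1, miR-34a-5p (8.38% of the 382 miRNAs to which it gave an adjusted p).

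The make-up of the family is given as shares of its reads, which were not tested between the groups. Over the 8 mature miRNAs of the miR-34 and miR-449 loci together, the NC libraries held 115, 85 and 114 reads and the MAFLD libraries 436, 432 and 182. MiR-34a-5p made up 67.8%, 54.1% and 65.8% of these in NC livers and 86.5%, 80.3% and 83.0% in MAFLD livers. The 95% Wilson intervals of the NC shares ended at 75.7% and those of the MAFLD shares began at 76.3%, which covers counting error and not the spread between mice. MiR-34c-5p made up 31.5% ± 8.51 (SD, n = 3) in NC and 12.2% ± 1.93 (SD, n = 3) in MAFLD livers. The summed level of the family was 61.5 ± 21.1 CPM (SD, n = 3) in NC and 125 ± 36.1 CPM (SD, n = 3) in MAFLD livers.

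**Figure D2:**
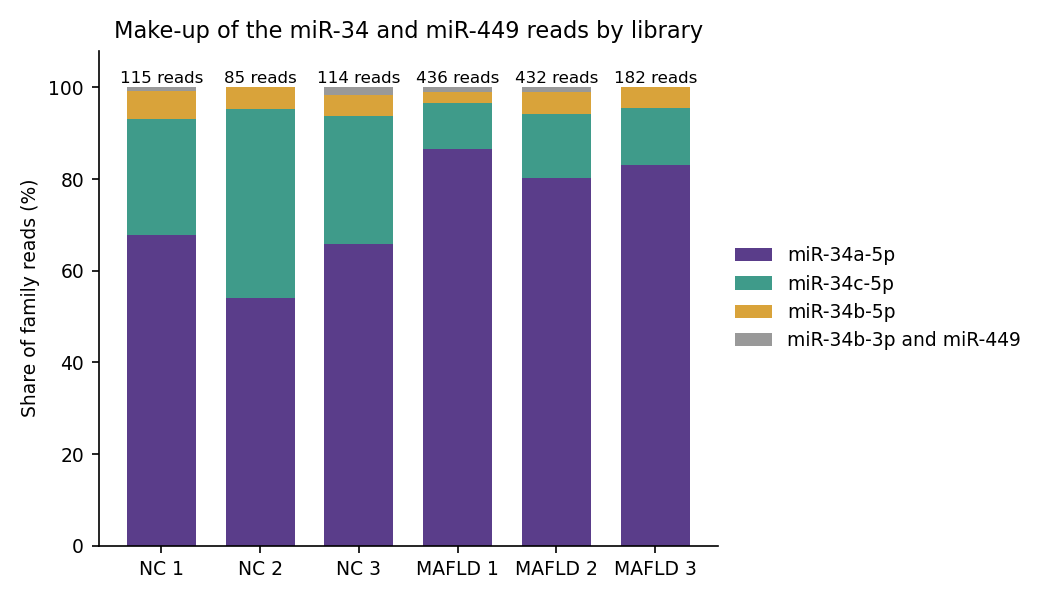
Share of the reads on the 8 mature miRNAs of the miR-34 and miR-449 loci (y axis, percent) in each library, with the number of these reads above the bar. MiR-34a-5p (purple) makes up 54.1% to 67.8% in NC and 80.3% to 86.5% in MAFLD livers, and miR-34c-5p (green) the larger part of the rest.

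Ratios between miRNAs of the same library do not depend on the scaling. The log2 ratio of miR-34a-5p to miR-34c-5p, chosen after its values were seen, was 1.43, 0.39 and 1.23 in NC livers and 3.10, 2.53 and 2.71 in MAFLD livers. The groups did not overlap, and the difference of 1.77 corresponds to a 3.40-fold higher ratio in MAFLD livers (two-sided exact permutation test, p = 0.1, the smallest possible). Relative to miR-122-5p, the hepatocyte miRNA, the log2 ratio of miR-34a-5p was −10.62 ± 0.22 (SD, n = 3) in NC and −9.31 ± 0.31 (SD, n = 3) in MAFLD livers, a difference of 1.31 with groups that do not overlap (exact permutation p = 0.1). Relative to miR-21a-5p, an abundant miRNA known from liver injury and inflammation, the difference was 1.74, again with groups that do not overlap (exact permutation p = 0.1). How many other miRNAs have ratios to these that do not overlap was not counted. By level, 15.2% of all tested miRNAs were higher without overlap in CPM and 11.6% with median-ratio scaling. MiR-122-5p itself had a log2 fold change of 0.14 (95% interval −0.43 to 0.72) and miR-21a-5p of −0.28 (95% interval −0.87 to 0.31). Relative to the median of all tested miRNAs they stood at −0.285 and −0.713. A miRNA on that median would thus also have a higher mean ratio to each in MAFLD livers. The levels of miR-21a-5p and miR-34c-5p correlated by 0.963, so the ratios to them are not independent.

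**Figure D3:**
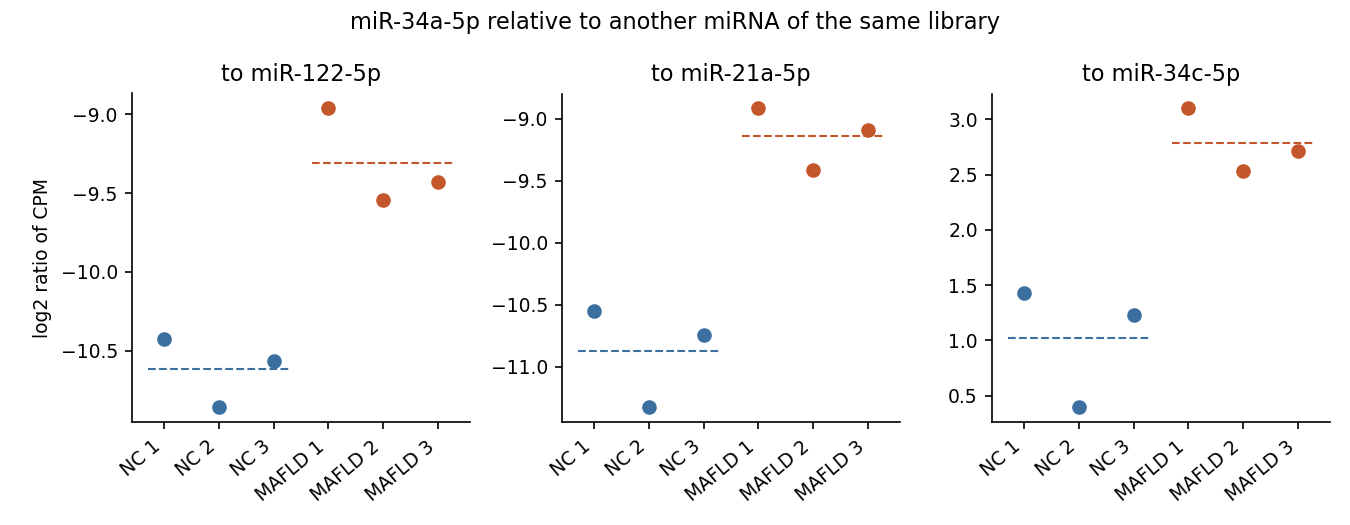
Log2 ratio of the CPM of miR-34a-5p to that of miR-122-5p, miR-21a-5p and miR-34c-5p (y axes) in each NC (blue) and MAFLD (orange) library, with group means as dashed lines. In each panel all 3 MAFLD livers lie above all 3 NC livers, by 1.31, 1.74 and 1.77 between the means.

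The miRNAs whose levels followed miR-34a-5p most closely came from outside the family. Among 237 others averaging 10 CPM or more, the highest Pearson correlations of log2(CPM + 1) over the 6 libraries were those of miR-92a-3p (r = 0.995), let-7d-5p (0.993), miR-20a-5p (0.992), miR-16-5p (0.992) and miR-378a-5p (0.992). Their log2 fold changes were 1.12 to 1.19 with adjusted p from 0.152 to 0.212 (limma). All 5 were higher in MAFLD livers without overlap, against 15.2% of all tested miRNAs, and nothing is read from this, since they were picked for following miR-34a-5p over the same libraries. These points have in common the libraries and their miR-148a-3p content. Under median-ratio scaling the same 5 correlations ran from 0.946 to 0.986. MiR-34c-5p was most like miR-21a-5p (r = 0.963), and its correlation with miR-34a-5p was −0.10. MiR-34b-5p correlated with miR-34a-5p by 0.86 and with miR-34c-5p by −0.20, on 4 to 21 reads of miR-34b-5p per library.

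Other miRNAs linked to p53, by transcription or by processing of their hairpins, gave a background for miR-34a-5p. All 12 of the list were tested, and 0 passed an adjusted p of 0.05 with limma or edgeR, which each called 0.200% of all miRNAs. DESeq2 called 1 of the 12, miR-16-5p, as higher, where it called 8.38% of the 382 miRNAs with an adjusted p, 2.36% as higher. At an unadjusted limma p under 0.05, 4 had a higher level in MAFLD livers (13.4% of all tested miRNAs) and 0 a lower one (4.59% of all). The median log2 fold change of the list was 0.61 against 0.43 for all tested miRNAs, and 0.15 against 0.044 with median-ratio scaling. MiR-16-5p and miR-15a-5p, which repress Bcl-2 as miR-34a does, stood at 1.19 (adjusted p = 0.152) and 1.11 (adjusted p = 0.212). MiR-107-3p, a regulator of insulin sensitivity, stood at 1.08 and miR-215-5p at 0.95, with adjusted p of 0.247 and 0.269. MiR-192-5p, an abundant hepatocyte miRNA, was at 0.43, on the median of all miRNAs. MiR-143-3p (0.049) and miR-145a-5p (0.28), miRNAs of smooth muscle and other mesenchymal cells, and miR-141-3p (−0.14), an epithelial miRNA, stood lowest. With median-ratio scaling miR-15a-5p, miR-16-5p and miR-107-3p still had an unadjusted p under 0.05, 3 higher and 0 lower against 7.19% and 8.98% of all tested miRNAs, and miR-143-3p, miR-145a-5p and miR-192-5p joined miR-141-3p below 0. The log2 fold change of miR-34a-5p was larger than that of all 12 in the limma fit, and that of miR-34c-5p was lower than all 12. The state of p53 itself was not measured in these libraries.

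**Figure D4:**
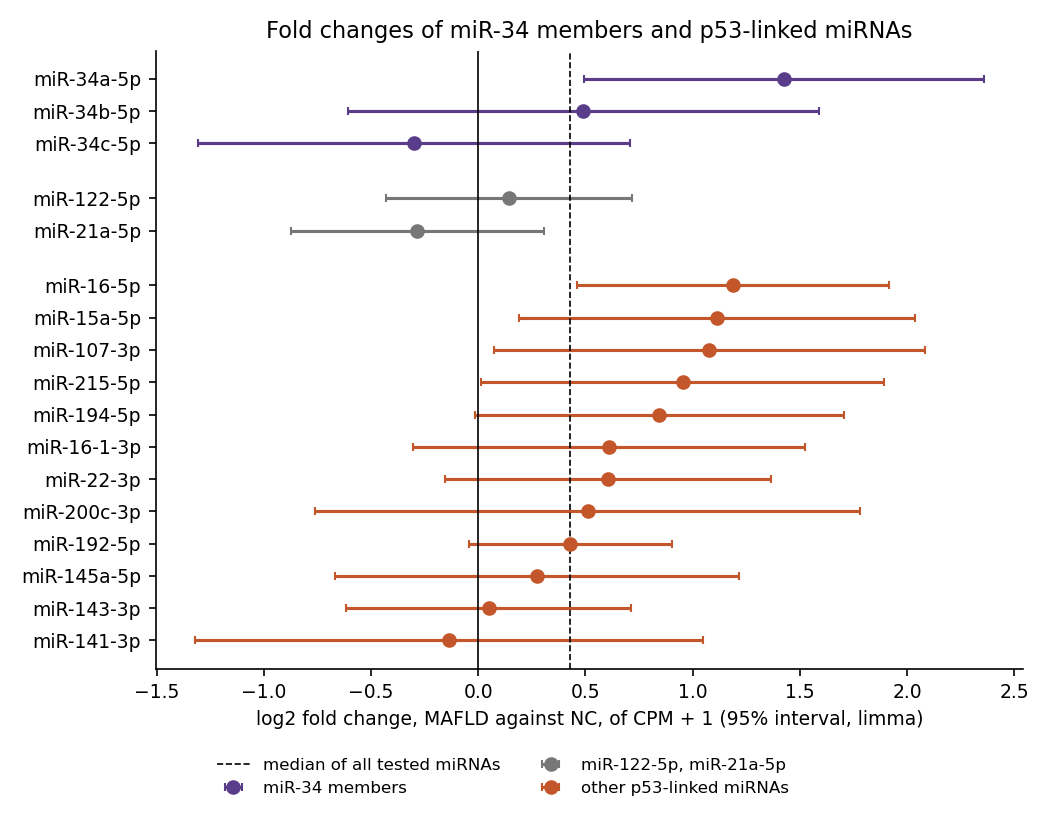
Log2 fold change in MAFLD against NC livers on the log2(CPM + 1) scale (x axis, with 95% intervals from limma, n = 3 per group) of the 3 tested miR-34 members (purple), miR-122-5p and miR-21a-5p (grey) and the 12 other p53-linked miRNAs (orange). The dashed line is the median of all 501 tested miRNAs, 0.43, and miR-34a-5p has the highest value shown, 1.43.

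Whole liver holds several cell types, and a change in the number of cells of a type cannot be told apart from a change in the miRNA per cell. Of 7 marker lists, the hepatocyte, biliary or epithelial, leukocyte, erythroid, mesenchymal and neural ones overlapped between the groups in their summed CPM. The neural list overlapped through NC replicate 3 alone (50.1 CPM). It summed to 459 and 735 CPM in NC replicates 1 and 2, and to 44.0 to 63.2 CPM in MAFLD livers. The endothelial list, miR-126a-3p and miR-126a-5p, summed to 4710 to 6587 CPM in NC and 7659 to 10155 CPM in MAFLD livers. Its part in the miR-34a-5p result was not tested. MiR-126a-3p had a log2 fold change of 0.69 and miR-126a-5p of 1.01, both with an adjusted p of 0.212 (limma). The median of all tested miRNAs was 0.43 in that fit, and these sums in CPM carry the same common shift. MiR-126a-3p was 0.26 above the median. MiR-126a-5p on its own overlapped between the groups, and 15.2% of all tested miRNAs were higher in MAFLD livers without overlap. The hepatocyte list summed to 102722 to 167007 CPM in NC and 147868 to 176512 CPM in MAFLD livers, the epithelial list to 196 to 867 and 249 to 437 CPM, and the leukocyte list to 135 to 247 and 190 to 353 CPM. No marker of any list was at 0 in all libraries.

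**Figure D5:**
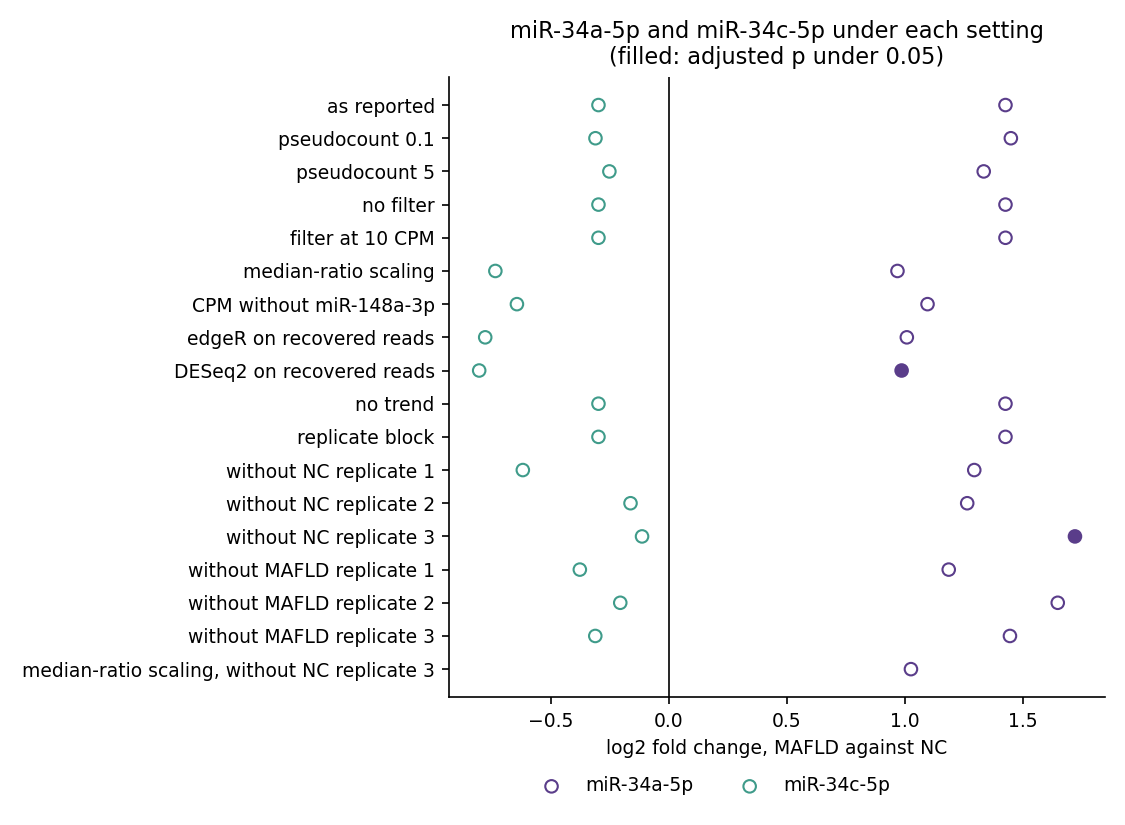
Log2 fold change of miR-34a-5p (purple) and miR-34c-5p (green) in MAFLD against NC livers (x axis) under the reported fit and each alternative (y axis), filled where the adjusted p is under 0.05. MiR-34a-5p stays between 0.97 and 1.72 and is filled with DESeq2 and without NC replicate 3, and miR-34c-5p stays between −0.80 and −0.11.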

How the data were processed

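Small RNA-seq libraries from 6 mouse livers, 1 per mouse, were made after treatments that remove end and base modifications of RNA, and inserts in the small RNA size range were kept. The table deposited by the authors gives CPM, relative to the sum over its 1546 mature miRNAs. The submitters' processing notes name FastQC, cutadapt, Bowtie, edgeR and GRCm38. Their settings, versions and the miRNA database are not given in the sources used here. Division by the smallest value of a library gave whole reads for 100% of values (within 0.02). MAFLD was tested against NC on log2(CPM + 1) by limma 3.58.1 (R 4.3.3, trend, two-sided, Benjamini-Hochberg) over the 501 miRNAs averaging 1 CPM or more. Single values and ratios were compared with exact permutation tests (scipy 1.17.1), and reads with edgeR 4.0.16 and DESeq2 1.42.0 as alternatives. Named were the members, same-locus and same-seed miRNAs, the 5 most alike, and the p53 list by its thresholds or extremes. MiR-145a-5p, miR-143-3p, miR-192-5p and the marker miRNAs were named beyond that rule. Members and lists were chosen with earlier results of these data known. The methods were tested on simulated data. Sequences are RefSeq's, positions GENCODE M21 and RefSeq (GRCm38).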

Additional observations from a re-analysis of the deposited data

How the results depend on the processing

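MiR-34a-5p was higher in MAFLD livers in all 17 alternatives, by 0.97 to 1.72 on the log2 scale (adjusted p between 0.00668 and 0.592). It passed 0.05 with DESeq2 (0.99) and without NC replicate 3 (1.72), and leaving out 1 library gave 1.19 to 1.72. Median-ratio scaling without NC replicate 3, added after the data were seen, gave 1.03 (adjusted p = 0.0536). MiR-34b-5p ran from 0.13 to 0.62 over 15 alternatives (0.41 to 0.62 with 1 library left out) and was not tested at 10 CPM. MiR-34c-5p ran from −0.80 to −0.11 over 16 (−0.62 to −0.11 with 1 library left out). Neither passed an adjusted p of 0.05. With 1 library left out, the log2 ratio differences ran from 1.13 to 1.42 (to miR-122-5p), 1.51 to 1.90 (miR-21a-5p) and 1.45 to 1.97 (miR-34c-5p), where an exact test of 2 against 3 cannot fall below 0.2.

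Of all miRNAs, 1 passed the adjusted p. The number was 11 without the filter, 2 under median-ratio scaling or with miR-148a-3p left out, 32 with DESeq2, 0 without the trend (where limma gave 74 at an unadjusted p under 0.05) and 0 to 114 with 1 library left out (114 without NC replicate 3, and 3 without MAFLD replicate 3). It was 0 without NC replicate 1, NC replicate 2, MAFLD replicate 1 or MAFLD replicate 2, where limma gave 56, 40, 41 and 89 at an unadjusted p under 0.05. The 90 of 501 at an unadjusted p under 0.05 became 59 at 10 CPM, where only 237 miRNAs besides miR-34a-5p were tested. They became 40 to 177 with 1 library left out, and 67 of the 90 were higher and 23 lower. Median-ratio scaling gave 36 higher and 45 lower, leaving out miR-148a-3p 52 and 38, edgeR 37 and 50, DESeq2 29 and 54. The 97 of 501 whose groups do not overlap became 56 in the smaller set at 10 CPM. The cause of these changes was not tested, apart from the fewer miRNAs at 10 CPM.

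A replicate block gave 5 miRNAs past the adjusted p, and miR-34a-5p had 1.43 in it (adjusted p = 0.185). The deviations of same-numbered livers, from different mice, correlated by −0.046 to 0.012, so no pairing by number was seen, and no member's call changed. Livers of different numbers were not compared in this way, and a shared preparation was not tested. Counting error limits miR-34b-5p (4 to 21 reads) and miR-449a-5p (0 to 3 reads) most.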
